A study of Homo sapiens with 8 samples.

Results

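A set of 10 genes that mark the fetal liver, hepatic progenitor cells or the stem-like cells of liver cancer was followed in Huh-1, a human cell line from a hepatocellular carcinoma, with and without an siRNA against LSD1. They are AFP, GPC3, EPCAM, PROM1, CD44, SALL4, KRT19, SOX9, DLK1 and LIN28B, and they were chosen by name. EPCAM has 2 rows in the deposited table, one under EPCAM and one under its older symbol TACSTD1, so that 11 of the 34694 rows belong to the 10 genes. Of these, 10 rows of 9 genes passed the filter for detection and were among the 12870 rows tested. DLK1 did not pass it.

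LSD1, the product of KDM1A, is a histone demethylase that removes methyl groups from lysine 4 of histone H3. The siLSD1 cultures were reverse-transfected with the siRNA against LSD1, and the siControl cultures with a control siRNA. All cultures, controls included, were then moved to 1% O2 at 48 h and held there for 24 h, so that no group was free of hypoxia or of transfection. Each group has 2 biological replicates (called culture 1 and culture 2 here), and each of these was hybridised to 2 Illumina bead arrays as technical replicates. Arrays 1 and 2 of a group hold culture 1, and arrays 3 and 4 hold culture 2. The sources used here do not say whether the 2 biological replicates came from separate passages or days, so the p-values measure only the spread between these samples. Huh-1 is 1 line, and the siRNA sequences, and whether 1 or several siRNAs were used, are not stated in those sources.

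Before birth the hepatoblast, the shared precursor of hepatocytes and bile duct cells, makes alpha-fetoprotein (AFP) and carries EPCAM, DLK1 and the proteoglycan GPC3 on its surface. These genes are largely silent in the adult hepatocyte and are often active again in hepatocellular carcinoma. EPCAM, PROM1 (CD133), CD44, KRT19 and SALL4 are used to mark tumours or tumour cells with progenitor-like features. LIN28B is a fetal RNA-binding protein that blocks the maturation of let-7 microRNAs.

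The signal of a row is the deposited bead intensity on a linear scale before normalization. Differences are log2 differences of normalized signal, siLSD1 minus siControl, given with their standard error (SE) over 2 cultures a group. A row counts as detected on an array where the deposited detection p is under 0.01. That p does not follow signal closely: 16049 rows outshone all ERCC controls (probes that match no human gene) on at least 4 arrays, and 1331 of them were detected on no array, so a row not detected need not be absent. The difference under neqc, a background correction that takes its level from the detection p-values, is given beside the reported one where it is much smaller. The KDM1A row, named AOF2 in the table, had a signal of 1576.4, 1567.6, 1343.3 and 1327.2 on the 4 siLSD1 arrays, against 3920.1, 3641.6, 5034.7 and 3997.9 on the 4 siControl arrays. Every siLSD1 array lay below every siControl array, which was so for 12.2% of all genes tested. The KDM1A difference was -1.48 ± 0.18 (limma adjusted p = 0.223). No gene of the 12870 reached an adjusted p under 0.05 in limma (0%), while 1515 had an unadjusted p under 0.05. The 2 siControl cultures stood further apart than the siLSD1 cultures: over all genes tested, the SD of the difference between the cultures of a group was 0.182 in siLSD1 and 0.502 in siControl. From 12447 to 13290 rows were detected per array. Of 7 hepatocyte genes (ALB, APOA1, TTR, SERPINA1, HNF4A, FOXA2 and AFP), all were brighter than every ERCC control row on at least 4 arrays, and 4 were detected on every array. Of 15 markers of other cell types, 10 were detected on no array, among them the leukocyte marker PTPRC, the endothelial markers PECAM1, VWF and CDH5 and the fibroblast markers COL3A1 and DCN. Another 3 of the 15, CD68, LUM and LYZ, passed the filter for detection and were tested. The summed signal of the 15 ran from 4380 to 4715 on siLSD1 arrays and from 4773 to 5510 on siControl arrays, and the part of such cells in the results was not tested.

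For 4 of the 10 genes (AFP, PROM1, CD44 and LIN28B), a promoter sequence could be matched in RefSeq (GRCh38.p14), each from 250 bases before to 50 bases after an annotated start. PROM1 and CD44 are shown because both were higher on every siLSD1 array and all cultures were hypoxic. PROM1 has several annotated starts, and the window with the most hypoxia response element cores is shown. AFP is shown with its neighbour on chromosome 4, AFM (afamin), because both belong to the albumin family and their differences had opposite signs, a contrast that was not itself tested. Capitals mark 2 kinds of motif, searched on both strands: the hypoxia response element core (ACGTG or GCGTG) and the TATA box (TATAAA).
PROM1 (chr4:16083974-16084273, minus strand): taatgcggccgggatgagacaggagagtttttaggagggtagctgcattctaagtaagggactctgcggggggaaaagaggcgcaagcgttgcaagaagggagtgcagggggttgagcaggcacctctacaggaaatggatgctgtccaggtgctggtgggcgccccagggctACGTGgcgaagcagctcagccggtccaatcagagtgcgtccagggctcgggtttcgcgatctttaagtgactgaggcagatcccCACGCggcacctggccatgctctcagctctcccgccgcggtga
CD44 (chr11:35138921-35139220, plus strand): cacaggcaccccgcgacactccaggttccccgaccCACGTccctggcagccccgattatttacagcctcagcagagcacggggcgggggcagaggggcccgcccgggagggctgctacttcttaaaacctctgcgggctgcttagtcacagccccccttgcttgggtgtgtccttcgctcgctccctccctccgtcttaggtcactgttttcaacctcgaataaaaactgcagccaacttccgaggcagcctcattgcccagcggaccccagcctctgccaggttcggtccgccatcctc
AFP (chr4:73435971-73436270, plus strand): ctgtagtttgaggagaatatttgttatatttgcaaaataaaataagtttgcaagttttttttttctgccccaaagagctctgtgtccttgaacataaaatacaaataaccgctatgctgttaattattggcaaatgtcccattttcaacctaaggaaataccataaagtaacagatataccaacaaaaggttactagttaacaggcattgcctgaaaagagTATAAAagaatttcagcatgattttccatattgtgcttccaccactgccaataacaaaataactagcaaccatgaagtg
AFM (chr4:73481495-73481794, plus strand): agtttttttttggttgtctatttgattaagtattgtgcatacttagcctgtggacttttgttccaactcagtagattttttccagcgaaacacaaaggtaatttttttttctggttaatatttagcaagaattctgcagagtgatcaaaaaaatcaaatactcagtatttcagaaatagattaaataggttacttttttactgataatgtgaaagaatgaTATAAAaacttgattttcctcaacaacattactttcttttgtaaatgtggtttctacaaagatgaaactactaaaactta
The PROM1 window shown held 2 hypoxia response element cores, at -77 and 7 (first base of the match, with 0 at the start), and the CD44 window held 1, at -215. The other PROM1 windows held 1 each, and the 2 windows of LIN28B, which was not higher in siLSD1, held 1 and 2. The 2 matches in that second LIN28B window, at -47 and -46, overlap on opposite strands as 1 palindrome. Of 35116 promoter windows of the same length from the same source, 48.4% held at least 1 such core. That share covers all windows, whereas the PROM1 window shown was picked for having the most cores. No culture was free of hypoxia, so an effect of these cores was not tested. AFP had the TATA box at -29 and AFM at -30, and 11.5% of all windows held TATAAA. A motif match describes letters only.

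EPCAM, PROM1 and CD44, the cell surface proteins most used to sort progenitor-like liver cancer cells, were all higher on each siLSD1 array than on each siControl array. This was so for 12.9% of all genes tested, and 12.2% had every siLSD1 array below every siControl array. These shares also stand beside each such statement below. EPCAM, an epithelial adhesion molecule, had signals of 4015.2, 3979.3, 3285.2 and 2820.2 on siLSD1 arrays, against 2098.5, 2237.3, 2663.1 and 2389.7 on siControl arrays, in the row under its current symbol. The lowest siLSD1 array stood above the highest siControl array. In normalized log2 signal this row averaged 11.78 ± 0.18 in siLSD1 and 11.14 ± 0.24 in siControl (SD, n = 2 cultures each), a difference of 0.64 ± 0.19 (95% interval 0.15 to 1.13, limma adjusted p = 0.346). The TACSTD1 row gave 4746.2, 4023.5, 4002.5 and 3436.8 in siLSD1, against 2233.7, 2164.9, 3002.1 and 2624.0 in siControl. Its difference was 0.76 ± 0.21 (95% interval 0.24 to 1.29, limma adjusted p = 0.322). Both rows therefore showed EPCAM transcript higher in siLSD1, and neither passed the adjusted threshold of 0.05. Over the 8 arrays the normalized values of the 2 rows had a Pearson correlation of 0.969, a description of 2 rows measured on the same arrays.

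PROM1, a pentaspan glycoprotein of membrane protrusions, had signals of 1788.2, 1738.2, 1310.8 and 1286.0 on siLSD1 arrays, against 745.9, 743.9, 1070.0 and 1089.1 on siControl arrays. The groups did not overlap, and siLSD1 culture 1 had the highest values. The normalized signal was 10.55 ± 0.22 in siLSD1 and 9.73 ± 0.41 in siControl (SD, n = 2 each), and the difference was 0.82 ± 0.25 (95% interval 0.20 to 1.44, limma adjusted p = 0.345). With all 8 arrays entered and the technical pairs modelled as correlated in limma, PROM1 was the only row among the 10 tested to pass, with an adjusted p of 0.0492. That fit called 1.45% of all genes as higher in siLSD1. CD44, the receptor for hyaluronan, had signals of 476.4, 440.3, 424.0 and 413.9 in siLSD1, against 295.4, 271.3, 341.3 and 363.3 in siControl. It was detected on 4 of 4 siLSD1 arrays and on 3 of 4 siControl arrays. Its difference was 0.53 ± 0.17 (95% interval 0.11 to 0.95, limma adjusted p = 0.354), from 8.64 ± 0.00 in siLSD1 and 8.11 ± 0.19 in siControl (SD, n = 2 each).

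SALL4, a zinc finger transcription factor of embryonic stem cells and fetal liver, was also higher on each siLSD1 array. Its signals were 316.8, 235.6, 369.2 and 288.2 on siLSD1 arrays, against 155.0, 139.0, 216.4 and 203.4 on siControl arrays. The row was dim: every siControl signal lay below the brightest ERCC control value (227.782), and it was detected on all 4 siLSD1 arrays but on only 2 siControl arrays, both of culture 2. The groups did not overlap, although siLSD1 array 2 stood close to siControl array 3. The normalized signal was 8.02 ± 0.28 in siLSD1 and 7.08 ± 0.43 in siControl (SD, n = 2 each), and the difference was 0.94 ± 0.26 (95% interval 0.27 to 1.61, limma adjusted p = 0.334). The size of the SALL4 difference is therefore poorly fixed: it was 0.73 with the authors' normalized values, 0.61 with median scaling and 0.07 under neqc. Under neqc the difference was 0.07 for CD44 and 0.43 for PROM1, against 0.82 for the EPCAM row and 1.00 for the TACSTD1 row.

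GPC3, a heparan sulfate proteoglycan used as a tissue marker of liver cancer, had signals of 5802.3, 5775.5, 5333.8 and 5062.9 in siLSD1, against 2452.7, 2284.7, 5530.0 and 4900.3 in siControl. The 4 siLSD1 arrays were close together, and the 2 siControl cultures were far apart. These signals overlapped between the groups. After normalization all siLSD1 arrays lay above all siControl arrays, but only narrowly above those of culture 2. The means were 12.44 ± 0.02 in siLSD1 and 11.73 ± 0.89 in siControl (SD, n = 2 each). The difference of 0.71 ± 0.41 (95% interval -0.33 to 1.75, limma adjusted p = 0.575) was made up of 1.34 against siControl culture 1 and 0.08 against siControl culture 2. The 2 siControl cultures themselves differed by 1.25, culture 2 minus culture 1.

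AFP, the main serum protein of the fetal liver, had signals of 6118.3, 4930.0, 5195.8 and 4757.8 in siLSD1, against 9472.0, 8554.2, 5039.4 and 4668.8 in siControl. The siLSD1 arrays lay below both arrays of siControl culture 1 and level with those of siControl culture 2. Normalized signal averaged 12.37 ± 0.01 in siLSD1 and 12.67 ± 0.59 in siControl (SD, n = 2 each). The difference was -0.30 ± 0.29 (95% interval -1.04 to 0.44, limma adjusted p = 0.758). It was -0.72 against siControl culture 1 and 0.12 against siControl culture 2, so the direction turned with the control culture.

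KRT19 and SOX9, which mark bile duct cells and the ductular progenitors next to them, showed no difference beyond their spread. KRT19, a keratin, had signals of 5595.4, 5197.3, 5468.4 and 5115.2 in siLSD1, against 3148.0, 3494.2, 5770.7 and 5648.4 in siControl. Its difference of 0.35 ± 0.31 (95% interval -0.44 to 1.14, limma adjusted p = 0.733) was 0.80 against siControl culture 1 and -0.10 against siControl culture 2. SOX9, a transcription factor of the bile duct lineage, had signals of 1160.1, 1072.9, 818.0 and 743.1 in siLSD1, against 950.9, 936.5, 766.6 and 729.4 in siControl. Here the cultures of each group, not the groups, were set apart: culture 2 minus culture 1 was -0.38 in siLSD1 and -0.34 in siControl. The SOX9 difference was 0.19 ± 0.21 (95% interval -0.35 to 0.72, limma adjusted p = 0.797), and without siLSD1 culture 1 it was -0.0043. Under neqc the SOX9 difference was 0.07.

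LIN28B was on the low side in siLSD1. Its signals were 2074.1, 1909.7, 1721.4 and 1703.3 on siLSD1 arrays, against 2125.5, 2028.6, 2739.4 and 2696.5 on siControl arrays. Both siLSD1 cultures averaged below both siControl cultures, which was so for 21% of all genes, but the arrays of culture 1 overlapped. Normalized signal was 10.86 ± 0.04 in siLSD1 and 11.16 ± 0.37 in siControl (SD, n = 2 each). The difference of -0.31 ± 0.21 (95% interval -0.85 to 0.24, limma adjusted p = 0.65) was -0.05 against siControl culture 1 and -0.57 against siControl culture 2. DLK1, a transmembrane protein of hepatoblasts, was detected on none of the 8 arrays. Its signals were 121.0, 125.7, 131.9 and 116.4 in siLSD1, against 121.5, 114.0, 118.4 and 132.1 in siControl, all below the brightest ERCC control value. It failed the filter on detection and was not tested. Without any filter its difference was 0.01 ± 0.11 (limma adjusted p = 0.995).

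The let-7 microRNAs that LIN28B acts on share the seed GAGGUAG at bases 2 to 8, and it is shown in capitals in 4 of the 8 mature let-7 forms of RefSeq (GRCh38.p14), all of which carry it.
let-7a-5p: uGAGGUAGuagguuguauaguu
let-7b-5p: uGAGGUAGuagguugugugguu
let-7d-5p: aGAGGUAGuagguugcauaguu
let-7g-5p: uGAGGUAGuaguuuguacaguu
The arrays measured cRNA and not mature microRNAs, and 9 rows carry the names of let-7 genes. Of these, 7 were detected on no array and MIRLET7F1 on 1 array. MIRLET7D, named after its values were seen, had signals of 543.2, 476.9, 400.7 and 456.4 in siLSD1, against 393.9, 327.0, 388.8 and 351.2 in siControl. Its difference was 0.40 ± 0.15 (limma adjusted p = 0.406).

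**Figure D1:**
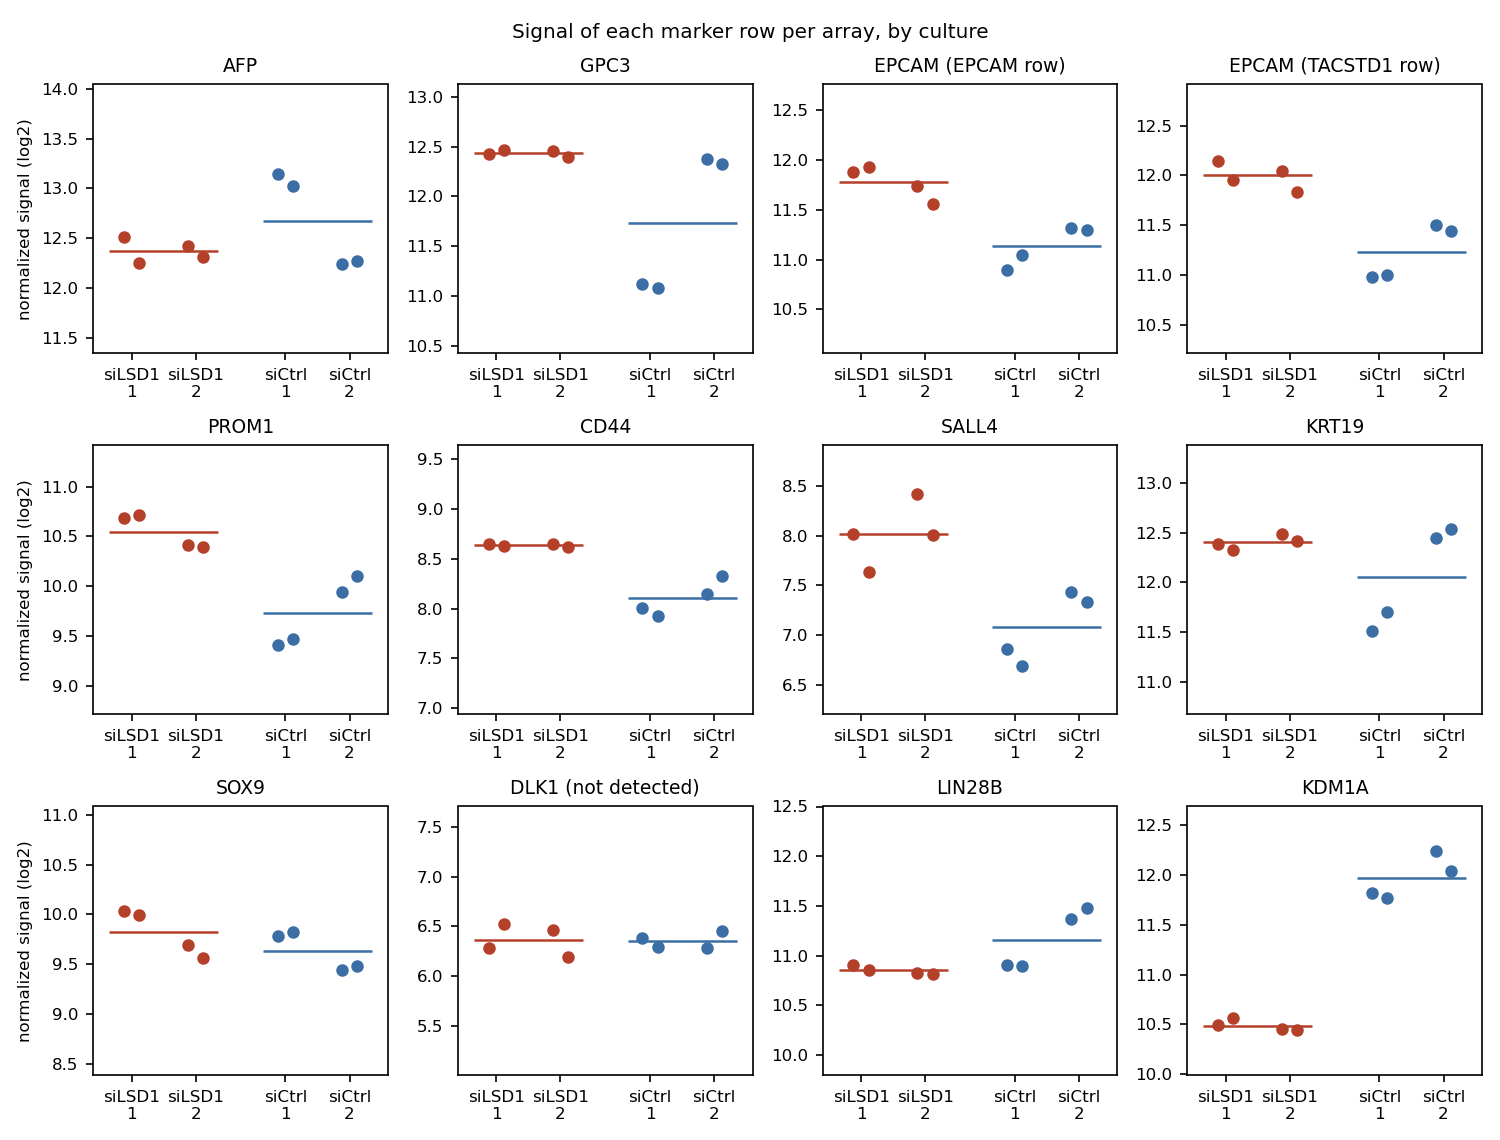
Normalized log2 signal of each marker row and of KDM1A on every array, 1 point per array, with siLSD1 cultures in red left of siControl cultures in blue and the group mean as a line; every panel spans the same number of log2 units. The siLSD1 points of GPC3, AFP, KRT19 and LIN28B sit close together while the 2 siControl cultures of those genes are apart.

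Side by side, the 10 tested rows were higher in siLSD1 in 8 cases and lower in 2, AFP and LIN28B. Over all 12870 genes tested, 6614 were higher and 6256 lower. That split also stands beside the counts of higher and lower genes in the lists below. None of the 10 rows passed the adjusted threshold in limma. An unadjusted p under 0.05 was reached by 5 rows, all higher (EPCAM in both rows, PROM1, CD44 and SALL4), where 5.92% of all genes were higher and 5.85% lower by that rule. These shares also stand beside the counts by that rule in the lists below. All 4 siLSD1 arrays lay above all 4 siControl arrays in 6 rows, those 5 and GPC3, against 12.9% of all genes, and in 0 rows did all lie below, against 12.2% of all genes. The median difference was 0.58 over the 10 rows and 0.01 over all genes tested. Under neqc the median over the 10 rows was 0.25. SALL4 and CD44 were not detected on every siControl array. With detection required on all arrays both dropped out, and the median over the 8 rows left was 0.49. Because the genes were chosen with earlier results of these data known, and 2 of the rows are the same gene, no test was made of the set.

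The size of the difference depended on the control culture. The median over the 10 rows was 0.80 against siControl culture 1 and 0.38 against siControl culture 2, and siControl culture 2 was itself above siControl culture 1 by a median of 0.50. The siControl cultures differed by more than 0.5 in 6 of the 10 rows and in 25.7% of all genes. The siLSD1 mean fell between the 2 siControl cultures for AFP and KRT19, 2 of the 10 rows, and for 41.6% of all genes. EPCAM, PROM1, CD44 and SALL4 stood above both siControl cultures, by 0.47 (EPCAM row) and 0.53 (TACSTD1 row), 0.53, 0.39 and 0.64 against the nearer one. SOX9 and GPC3 also stood above both, by 0.02 and 0.08 against the nearer one.

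**Figure D2:**
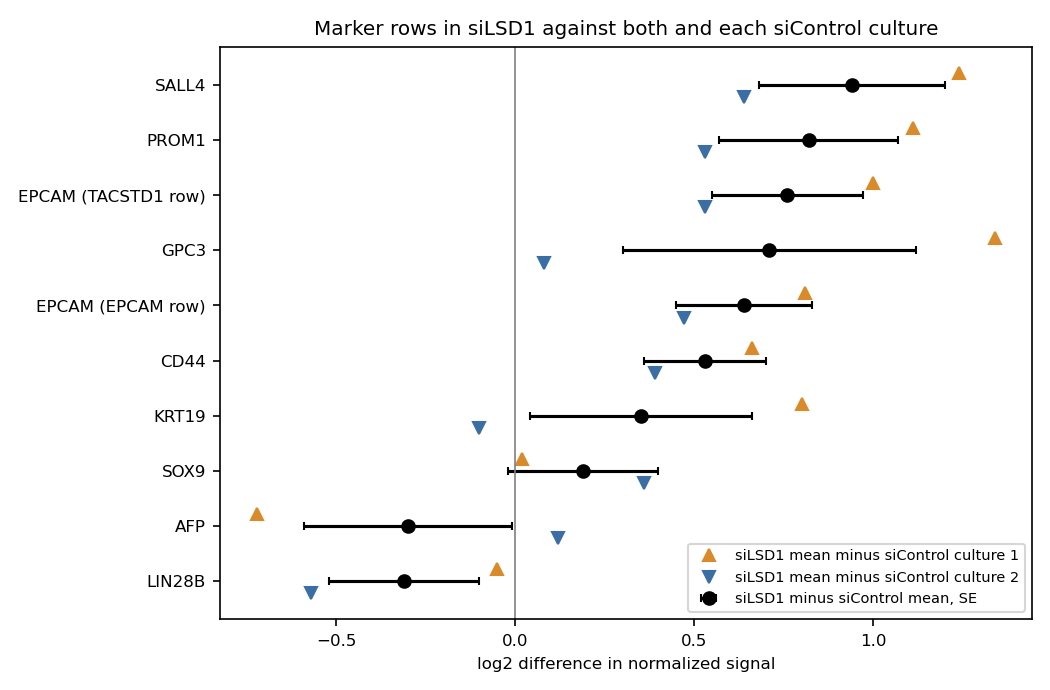
Log2 difference of each tested row, siLSD1 minus siControl: black points are the difference of the group means with their SE, orange triangles the siLSD1 mean minus siControl culture 1 and blue triangles the siLSD1 mean minus siControl culture 2. SALL4, PROM1, both EPCAM rows and CD44 lie right of 0 against either culture, whereas KRT19 and AFP change sides.

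With a single control culture in the fit, more rows passed, since the spread then came from the siLSD1 pair alone and the lone siControl culture was assumed to vary as little. Against siControl culture 2 only, SALL4 (limma adjusted p = 0.00222), the TACSTD1 row (0.00904), PROM1 (0.0103) and the EPCAM row (0.0246) passed as higher, while CD44 did not (0.0589) and LIN28B passed as lower (0.00458). That fit called 8.16% of all genes higher and 8.78% lower. Against siControl culture 1 only, GPC3 (limma adjusted p = 2.2e-10), SALL4 (5.09e-09), PROM1 (5.39e-08), both EPCAM rows (2.25e-05 and 2.8e-07 for TACSTD1), KRT19 (2.24e-05) and CD44 (0.000291) passed as higher and AFP (0.000106) as lower. That fit called 19.7% of all genes higher and 19.2% lower.

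**Figure D3:**
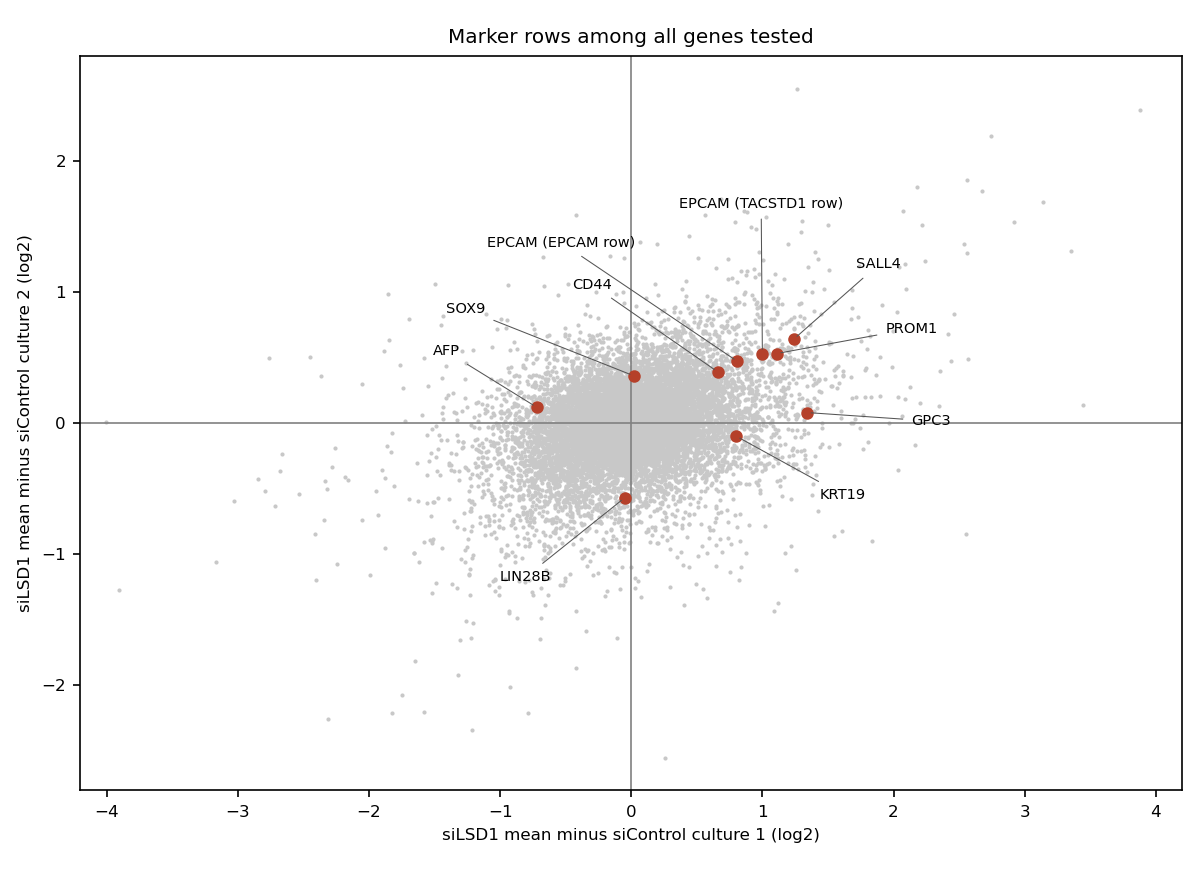
Each tested gene (grey) and each marker row (red) by its siLSD1 mean minus siControl culture 1 (horizontal, log2) and minus siControl culture 2 (vertical, log2); both axes share the siLSD1 mean, which ties them together. EPCAM, PROM1, CD44 and SALL4 lie in the upper right, GPC3 near the horizontal axis at 1.34, and AFP and KRT19 on opposite sides of the vertical axis.

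The albumin family, a cluster of serum protein genes to which AFP belongs, holds 3 further genes. All 3 were tested and higher, with a median of 0.77. An unadjusted p under 0.05 was reached by 2 of them, where 5.92% of all genes were higher by that rule. AFM, a vitamin E carrier, had signals of 734.2, 641.4, 655.8 and 558.7 in siLSD1, against 255.4, 297.4, 376.3 and 326.2 in siControl. The groups did not overlap, and the difference was 1.17 ± 0.17 (limma adjusted p = 0.223), with 1.33 and 1.01 against siControl cultures 1 and 2, but 0.19 under neqc. GC, the vitamin D binding protein, differed by 0.77 ± 0.25 (1.07 and 0.46). ALB differed by 0.04 ± 0.15, with 0.11 and -0.02 against siControl cultures 1 and 2, so that its direction, like that of AFP, turned with the control culture.

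Among regulators of AFP and the transcription factors of the hepatoblast, 18 of 24 genes were tested, with 9 higher, 9 lower and a median of 0.01. NR0B2 (SHP), a nuclear receptor without a DNA-binding domain that represses other liver factors, differed by 1.62 ± 0.30 (limma adjusted p = 0.243), with 552.9, 421.7, 471.1 and 406.5 in siLSD1, against 150.3, 128.7, 230.3 and 227.3 in siControl. It was detected on 4 siLSD1 arrays and 2 siControl arrays. The siControl signals lay near or below the brightest ERCC control value, and under neqc the difference was 0.15. ZHX2, known as a repressor of Afp in mouse liver, differed by 0.35 from siControl culture 1 and by -0.66 from siControl culture 2. ZBTB20, another such repressor in mouse, differed by -0.19 and -0.20. The values of ZHX2 and ZBTB20 are given for their role and not by a rule on their size.

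The relatives of GPC3 had differences of both signs. Of 11 glypicans and heparan sulfate enzymes 6 were tested, 3 higher and 3 lower, with a median of -0.03. GPC2, a glypican of embryonic nervous tissue, had signals of 720.4, 726.8, 680.6 and 592.4 in siLSD1, against 273.6, 292.6, 448.2 and 418.0 in siControl, a difference of 1.05 ± 0.24 (limma adjusted p = 0.274), or 0.19 under neqc. GPC1 differed by -0.74 ± 0.25 (limma adjusted p = 0.377), or -0.21 under neqc, with every siLSD1 array below every siControl array. GPC6 differed by 0.16 ± 0.16, and GPC4 and GPC5 were detected on no array. Whether GPC3 and GPC2 differ in response was not tested.

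The partners of EPCAM and CD44 were divided as well. Of 21 genes 13 were tested, 5 higher and 8 lower, with a median of -0.07. SPP1 (osteopontin), a secreted ligand of CD44, differed by 0.81 ± 0.24, and MSN (moesin), which links CD44 to actin, by 0.52 ± 0.17. HMMR, another receptor for hyaluronan that also works on the mitotic spindle, was lower: its signals were 568.2, 558.3, 515.2 and 487.8 in siLSD1, against 1029.0, 959.2, 1407.1 and 1306.3 in siControl. Its difference was -1.18 ± 0.21 (limma adjusted p = 0.243), and -0.40 under neqc. The PROM1 paralogue PROM2 was detected on no array.

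SALL4 recruits the nucleosome remodelling and deacetylase complex (NuRD), and LSD1 has been found with the same complex. Of 16 genes of the SALL family and of NuRD 12 were tested, 10 higher and 2 lower, and the median was 0.27. An unadjusted p under 0.05 was reached by 4 of them, all higher, where 5.92% of all genes were higher by that rule. CHD4, the remodelling ATPase, had signals of 2529.1, 2524.7, 2207.6 and 2207.3 in siLSD1, against 1582.4, 1643.0, 1651.1 and 1509.7 in siControl. Neither control culture stood apart for CHD4, and the difference was 0.63 ± 0.14 (limma adjusted p = 0.282). GATAD2B differed by 0.55 ± 0.15 and the histone chaperone RBBP4 by 0.49 ± 0.15, or 0.21 and 0.20 under neqc. SALL2 differed by 0.70 ± 0.27, or 0.05 under neqc, and was detected on 4 siLSD1 and 2 siControl arrays. SALL1 was detected on 3 arrays in all and SALL3 on none.

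The LIN28 and let-7 list had 12 of 17 genes tested, 11 higher and 1 lower, with a median of 0.13. TUT4, which LIN28A recruits to tag let-7 precursors with uridine, differed by 0.76 ± 0.28, or 0.34 under neqc. MYC, a let-7 target, differed by 0.73 ± 0.22 (limma adjusted p = 0.345). LIN28A and the let-7 target HMGA2 were detected on no array. In the delta-like and Notch list 8 of 18 genes were tested, 7 higher and 1 lower, with a median of 0.18. JAG1, a Notch ligand, had signals of 4540.9, 4069.8, 3257.4 and 3520.5 in siLSD1, against 2365.6, 2376.8, 1731.6 and 1954.0 in siControl, a difference of 0.94 ± 0.18 (limma adjusted p = 0.243). HES1, a target of Notch, differed by 0.84 ± 0.26, or 0.49 under neqc. DLK2, the paralogue of DLK1, was detected on 3 arrays in all and not tested.

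Biliary and ductular genes, the neighbours of KRT19 and SOX9, had 14 of 22 tested, 6 higher and 8 lower, with a median of -0.05. SOX4, a SOX factor that works beside SOX9 in bile duct development in the mouse, had signals of 11855.8, 11245.3, 11243.5 and 11449.5 in siLSD1, against 5133.6, 4350.3, 5629.8 and 5222.3 in siControl. Its difference of 1.23 ± 0.17 (limma adjusted p = 0.223) was 1.39 and 1.08 against siControl cultures 1 and 2. ONECUT1, a transcription factor of hepatoblasts and bile ducts, differed by 0.68 ± 0.20, or 0.12 under neqc. The keratins KRT7, KRT8 and KRT18 differed by -0.03 ± 0.16, 0.03 ± 0.20 and -0.16 ± 0.36, and each changed sign with 1 culture left out. Of 18 other markers of liver cancer stem cells 8 were tested, 6 higher and 2 lower, with a median of 0.31. CD24, a surface sialoglycoprotein, differed by 0.86 ± 0.31 and ICAM1 by 0.50 ± 0.17, or 0.04 under neqc.

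Mature hepatocyte genes had 18 of 29 tested, 11 higher and 7 lower, with a median of 0.04 and no unadjusted p under 0.05. The urea cycle enzyme CPS1, named after its values were seen, shows how far the controls could stand apart: 5398.3, 5844.3, 4217.2 and 3746.6 in siLSD1, against 23697.7, 23600.6, 4042.0 and 3393.8 in siControl. Imprinted fetal growth genes had 7 of 18 tested, 3 higher and 4 lower, with a median of -0.17. CDKN1C, an inhibitor of the cell cycle, differed by -0.57 ± 0.16, or -0.04 under neqc, and was detected on 1 siLSD1 array and 4 siControl arrays. H19, a fetal non-coding RNA, differed by 0.82 from siControl culture 1 and by -1.20 from siControl culture 2. No gene of any list passed the adjusted threshold in limma. With technical pairs modelled, SOX4 (limma adjusted p = 0.00392), HMMR (0.00557), NR0B2 (0.0121), AFM (0.0179), GPC2 (0.0226), JAG1 (0.0301), CHD4 (0.0378), SPP1 (0.0419) and MYC (0.0475) passed among the genes named above, as did KDM1A (0.00173). That fit called 186 of all 12870 genes tested higher and 189 lower. The list genes among these calls had been named for an unadjusted p under 0.05 on the same arrays, so their passing is no separate support. The markers of other cell types had 3 of 15 tested, with differences of -0.28 for CD68, -0.13 for LUM and 0.02 for LYZ. Since each culture was measured in bulk, more cells with a transcript and more of it per cell cannot be told apart.

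**Figure D4:**
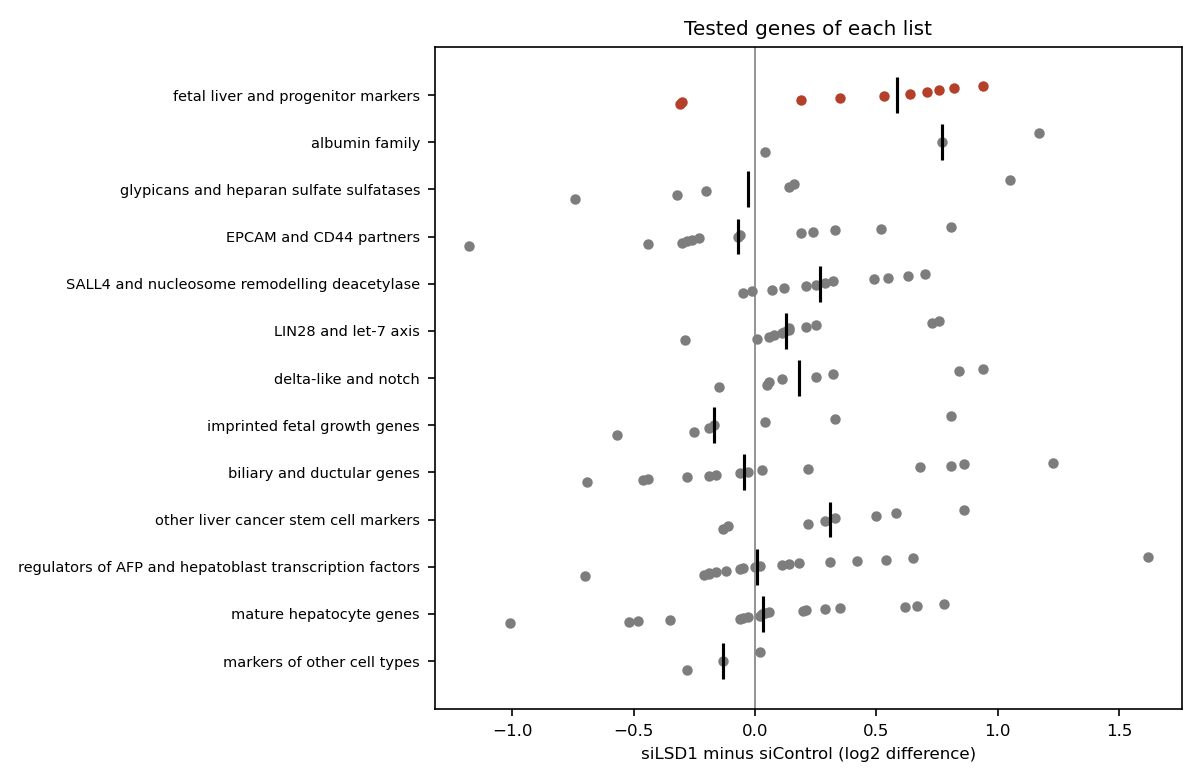
Log2 difference, siLSD1 minus siControl, of every tested gene of each list (points) with the list's median (black bar); the marker rows are red and on top. The markers' median of 0.58 (0.25 under neqc) comes with 2 rows below 0, and the medians of the other lists run from -0.17 to 0.77.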

How the data were processed

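Total RNA was labelled as biotin cRNA and hybridised to Illumina bead arrays, 8 arrays for 4 biological samples. The authors deposited unnormalized bead intensity (linear) with a detection p-value for every row and array, and a second table of normalized intensity with 34687 rows. BeadStudio 3.1.1.0 was used, per the submitters' processing notes. No source used here states how probes were joined into 1 row per symbol or how the detection p-value was computed, and it is not a rank of a row's own signal.

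From the first table, the signal was corrected with normexp (offset 50), quantile normalized and taken to log2 with limma 3.58.1 in R 4.3.3. Technical arrays of a culture were averaged. The siLSD1 and siControl groups, 2 cultures each, were then compared by lmFit and eBayes, two-sided, with Benjamini-Hochberg adjustment over 12870 rows. These had a deposited detection p-value below 0.01 on 4 or more of the 8 arrays and exclude 92 ERCC control rows. With 2 against 2 the smallest exact permutation p is 0.333, and the few arrays limit precision. Older symbols were updated through RefSeq's GRCh38.p14 gene table (17762 rows carried a current symbol, 2735 an older one), and all 10 marker genes were found. Promoter and microRNA sequences are RefSeq's.

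The marker genes and the lists around them were chosen with earlier results of these data known. Named besides the marker genes and KDM1A were the tested list genes with an unadjusted p under 0.05 (at most 8 per list, by smallest p) and a set of paralogues whatever their p. A few of these are not reported here. Other names were chosen for their role or after their values were seen. Both groups carry replicate numbers, but no label speaks of shared days, and the difference between cultures correlated at 0.115 between the groups over all genes, so no pairing was used. Scripts were tested on simulated data with the same spread in every sample. That test did not cover the wider spread between the siControl cultures. The alternatives were neqc, median scaling, the authors' normalized values, an offset of 16, other filters, modelled technical replicates (duplicateCorrelation), a replicate block, and leaving out each culture and array.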

Additional observations from a re-analysis of the deposited data

How the results depend on the processing

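Of 208 values of the 10 tested marker rows under the alternatives, 191 kept their direction and their side of the threshold, 14 kept the direction and newly passed it, and 3 changed sign. Without siControl culture 1, AFP was 0.12 and KRT19 -0.10. Without siLSD1 culture 1, SOX9 was -0.0043. Over the settings that left out a culture or an array, AFP ran from -0.72 to 0.12, KRT19 from -0.10 to 0.80 and SOX9 from -0.0043 to 0.38. For 27 other named genes, 506 of 562 values were unchanged in direction and call, 49 newly passed and 7 changed sign: ALB ran from -0.02 to 0.11, KRT7 from -0.17 to 0.10, KRT8 from -0.19 to 0.24 (with -0.06, -0.03 and, under median scaling, -0.0091) and KRT18 from -0.67 to 0.35 with cultures or arrays left out. The median of the marker rows was 0.25 under neqc against 0.58, and 0.38 to 0.80 with a culture or an array left out. The cause was not tested. The number of genes called was 0, and 375 with technical replicates modelled; it ran from 0 to 5006 with a culture or an array left out. The calls came without siControl culture 1 (2180) and without siControl culture 2 (5006), where the spread rests on the siLSD1 pair alone, while without an siLSD1 culture 0 genes were called and 256 or 334 had an unadjusted p under 0.05. With the replicate block, 0 genes were called, 1509 had an unadjusted p under 0.05, the median of the marker rows was 0.58 and SALL4 had an adjusted p of 0.164 in limma. With no filter the median over all 11 rows, DLK1 included, was 0.53. Much smaller differences under neqc are given in the report with the reported ones. SALL4 and CD44 were dim and were not detected on every siControl array, so the size of their differences is poorly fixed. PROM1, detected on all 8 arrays, also had a smaller difference under neqc, 0.43 against 0.82.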
